A study of Mus musculus with 6 samples.

Results

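The Qa-2 region genes H2-Q4 and H2-Q6 to H2-Q9 of the mouse major histocompatibility complex (MHC) were followed in brain messenger RNA from young and aged mice. They were taken by symbol from the authors' senescence table, where they are 5 of 88 genes, and all 5 passed the filter for testing, an average of 1 or more over the libraries. The series holds 3 young and 3 aged samples, sequenced as poly(A) RNA. The samples carry the tissue label brain and the cell type label neuroblast, the migrating precursor of a neuron, although the extraction text speaks of ground tissue. The sources used here do not give age in months, strain or sex. A text attached to every sample, young and aged, mentions tamoxifen injection and tdTomato+ NK cells measured in several organs, and its link to the sequenced RNA is not stated. Separate animals are not stated to lie behind the samples, and p-values measure only the spread between samples, which may be technical.

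Class I MHC molecules consist of a heavy chain held with beta-2 microglobulin. The classical heavy chains, among them H2-K1 and H2-D1, show peptides from inside the cell to CD8+ T cells and are also read by natural killer (NK) cells. The Q region lies beside H2-D1 and encodes nonclassical heavy chains that vary less between individuals. The genes from H2-Q6 to H2-Q9 encode the Qa-2 antigen, which is tethered to the membrane by a lipid anchor or secreted, and their number differs between mouse strains. H2-Q4 encodes Qb-1, a secreted relative. Class I promoters are known for an upstream enhancer bound by NF-kB, an adjoining interferon response element and a module further downstream with a cyclic AMP response element (CRE) half-site. All 5 genes carry the same 5 KEGG pathway terms in the table, namely cellular senescence, cell adhesion molecules, phagosome, endocytosis, and antigen processing and presentation.

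All 5 genes were above every young sample in aged replicates 2 and 3, as were 43.9% of the 66 tested genes. The pattern is thus not particular to them, and 6 of the 8 other tested class I genes had it. It was the reason for showing RefSeq promoters, which were on hand for 3 of the 5 genes. Each is the stretch from 250 to 21 bases before the annotated start, on the plus strand of chromosome 17 in GRCm38.p6, with matches to the NF-kB consensus (first block) and to the interferon regulatory factor (IRF) core AANNGAAA or its reverse complement (second block) in capitals. H2-Q4 is chr17:35379367-35379596, H2-Q6 is chr17:35424600-35424829 and H2-Q7 is chr17:35438905-35439134.
H2-Q4: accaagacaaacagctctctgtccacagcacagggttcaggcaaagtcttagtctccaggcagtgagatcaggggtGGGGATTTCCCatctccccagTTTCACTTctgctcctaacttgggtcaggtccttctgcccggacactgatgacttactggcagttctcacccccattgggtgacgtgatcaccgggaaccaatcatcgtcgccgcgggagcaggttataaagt
H2-Q6: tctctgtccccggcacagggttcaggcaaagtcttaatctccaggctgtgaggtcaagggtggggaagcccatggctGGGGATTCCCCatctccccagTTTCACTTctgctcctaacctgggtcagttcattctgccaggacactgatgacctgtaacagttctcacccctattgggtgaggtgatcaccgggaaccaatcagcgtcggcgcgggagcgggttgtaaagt
H2-Q7: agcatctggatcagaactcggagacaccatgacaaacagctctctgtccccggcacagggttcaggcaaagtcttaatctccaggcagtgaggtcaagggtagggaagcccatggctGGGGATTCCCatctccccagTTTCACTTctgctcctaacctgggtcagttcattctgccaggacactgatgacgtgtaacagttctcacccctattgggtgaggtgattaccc
The H2-Q6 and H2-Q7 stretches shared 185 of 190 aligned bases (97.4%), and H2-Q4 shared 90.2% of aligned bases with H2-Q6 and 89.5% with H2-Q7. Gaps, left out of these shares, came to 80 bases in each alignment with H2-Q7 and 32 in that of H2-Q4 with H2-Q6. The H2-Q7 stretch reaches less far downstream in the shared sequence than the other 2. All 3 held the NF-kB block and, downstream of it, the same IRF block. Searched on both strands, the NF-kB consensus was present in 6.43% and the IRF core in 20.2% of the 27025 RefSeq promoters cut to the same window. The NF-kB matches overlapped one another within each promoter and did not overlap the IRF match. The CCAAT box was found in all 3 (32.8% of all promoters), the CRE half-site TGACG in H2-Q4 and H2-Q7 (15.8%), and the TATA box TATAAA in H2-Q4 (12.4%). The half-site began 73 bases before the start in H2-Q4 and 64 in H2-Q7, where the first NF-kB match began at 174 and 133. The half-site matches are thus not at matching places in the shared sequence. The H2-Q7 stretch ends before the part that holds the TATA match in H2-Q4, so a TATA box was not assessed there. These are matches of letters, not measured binding sites.

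The genes also resemble each other in the transcript, which bears on how their reads can be assigned. In GENCODE M21, 284 of the 1474 windows of 50 bases in the longest H2-Q7 coding transcript (19.3%) occurred unchanged in that of H2-Q6, 36 (2.44%) in that of H2-Q4, 46 (3.12%) in that of H2-K1 and 123 (8.34%) in that of H2-D1. H2-Q8 and H2-Q9 were not compared here. How the authors assigned reads that fit several genes is not stated in the sources used here, so the single values of H2-Q6 to H2-Q9, the Qa-2 copies, are uncertain and their sums are given as well.

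The values are the authors' expression signal, whose unit and depth are not stated. Whether it is scaled by gene length is not given either, so levels of different genes are not ranked. Of the 88 genes, none averages lower in aged than in young samples, hence the direction of a mean difference was set by the choice of the table. Aged replicate 1 stood apart: across the 66 genes that passed the filter, its log2 signal correlated with aged replicates 2 and 3 at Pearson's r of 0.737 and 0.723, against 0.992 between those 2 and 0.962 to 0.992 among the young (genes are not independent replicates). None of the 37 markers listed for microglia, NK and T cells, endothelium, glia, choroid plexus, neuroblasts, stem cells and neurons is in the table, so neither the cell type label nor the cell content could be checked with them. The choroid plexus linked genes Igfbp2, Trpv4 and Calml4, not among those markers, are in it. In replicates 1 to 3, Igfbp2 was at 733, 329 and 353 in the young and 170, 776 and 814 in the aged samples. Calml4 was at 67.5, 35.5 and 28.9 and at 34.0, 74.9 and 65.7, and Trpv4 at 60.0, 49.9 and 54.5 and at 18.4, 74.7 and 80.2. Whether cell content differed between libraries was not tested. In such bulk RNA, more cells of a type and more RNA per cell cannot be told apart.

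H2-Q4 (Entrez gene 15015) was at 58.1, 68.6 and 59.5 in the young and at 49.4, 99.6 and 90.5 in the aged samples (replicates 1 to 3 in order, here and throughout). Aged replicates 2 and 3 were above every young sample and aged replicate 1 was below every one. The group means were 79.8 ± 26.7 in aged and 62.1 ± 5.71 in young samples (SD, n = 3 each), a 1.29-fold difference.

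Among the Qa-2 genes, H2-Q9 (110558) was at 3.11, 2.67 and 2.35 in the young and at 3.56, 10.7 and 12.1 in the aged samples. Its aged samples all lay above its young samples, and the means were 8.78 ± 4.57 and 2.71 ± 0.382 (SD, n = 3 each). H2-Q7 (15018) was at 7.50, 10.9 and 10.2 in the young and at 5.84, 32.8 and 26.1 in the aged samples. Here aged replicate 1 was the lowest of all 6 libraries, while the other 2 aged values were on average 3.09 times the young mean.

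H2-Q6 (110557) was at 2.22, 9.09 and 6.81 in the young and at 8.33, 22.99 and 15.6 in the aged samples. H2-Q8 (15019) was at 8.75, 4.79 and 5.54 in the young and at 5.66, 12.02 and 17.9 in the aged samples. In both genes aged replicate 1 fell within the young range and the other aged samples lay above it. Aged replicates 2 and 3 were thus above all young samples in 5 of 5 genes, against 43.9% of the 66 tested genes, and all 3 aged samples were above all young samples in 1 of 5, against 6.06%. In 2 of 5, H2-Q4 and H2-Q7, aged replicate 1 was at the same time below all young samples, against 31.8%.

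**Figure D1:**
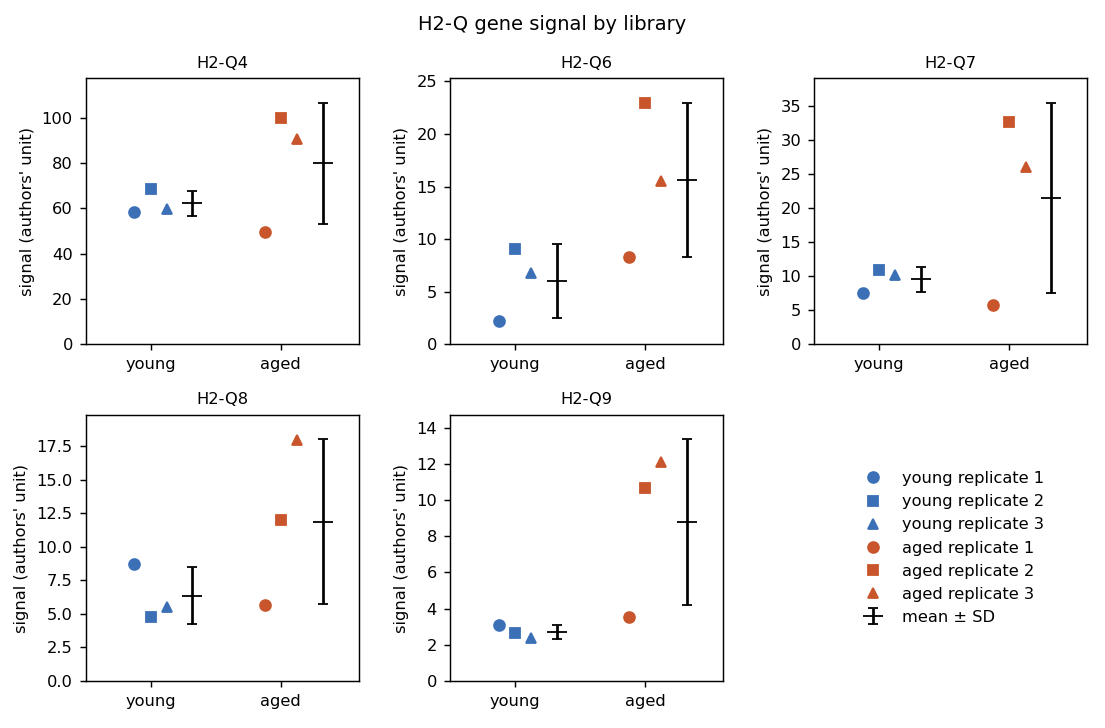
Expression signal (authors' unit, vertical axes from 0) of the 5 H2-Q genes in 3 young and 3 aged libraries, with mean and SD. Aged replicates 2 and 3 lie above all young libraries in each panel, and aged replicate 1 lies above them only for H2-Q9.

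H2-Q6 and H2-Q8 traded places between libraries while their sum varied less. In young replicate 1 the H2-Q8 signal was 3.94 times that of H2-Q6, but it was 0.527 times in young replicate 2 and 0.814 times in young replicate 3. The coefficient of variation (CV, SD over mean) over the young samples was 57.9% for H2-Q6 and 33.1% for H2-Q8, against 11.7% for their sum. In aged replicates 2 and 3 the H2-Q6 signal was 22.99 and 15.6, and the sum of both was 35.0 and 33.5.

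Of the other pair, H2-Q7 and H2-Q9, the sum had a young CV of 12.2%, beside 18.7% and 14.1% for the single genes. The lower CV of a sum is not particular to H2-Q6 with H2-Q8: H2-Q7 with H2-Q8 gave 2.02%, whereas H2-Q6 with H2-Q7, H2-Q6 with H2-Q9 and H2-Q8 with H2-Q9 gave 33.9%, 37.0% and 26.7%. Both pair sums were nearly equal in each young library, the ratio of H2-Q6 plus H2-Q8 to H2-Q7 plus H2-Q9 being 1.03, 1.03 and 0.983. In the aged libraries that ratio was 1.49, 0.806 and 0.878, with aged replicate 1 on one side of the young values and aged replicates 2 and 3 on the other. The means differed by less than the spread between samples (1.06 ± 0.375 in aged, 1.01 ± 0.0272 in young, SD, n = 3 each, exact two-sided permutation p = 1).

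The sum of H2-Q6 to H2-Q9 was 21.6, 27.4 and 24.9 in the young and 23.4, 78.5 and 71.6 in the aged samples. Aged replicate 1 was inside the young range, at 0.950 times the young mean, and aged replicates 2 and 3 averaged 3.05 times that mean. Over all samples the means were 57.8 ± 30.0 and 24.6 ± 2.92 (SD, n = 3 each), with an exact two-sided permutation p = 0.3. With 3 samples against 3, that test cannot go below 0.1.

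**Figure D2:**
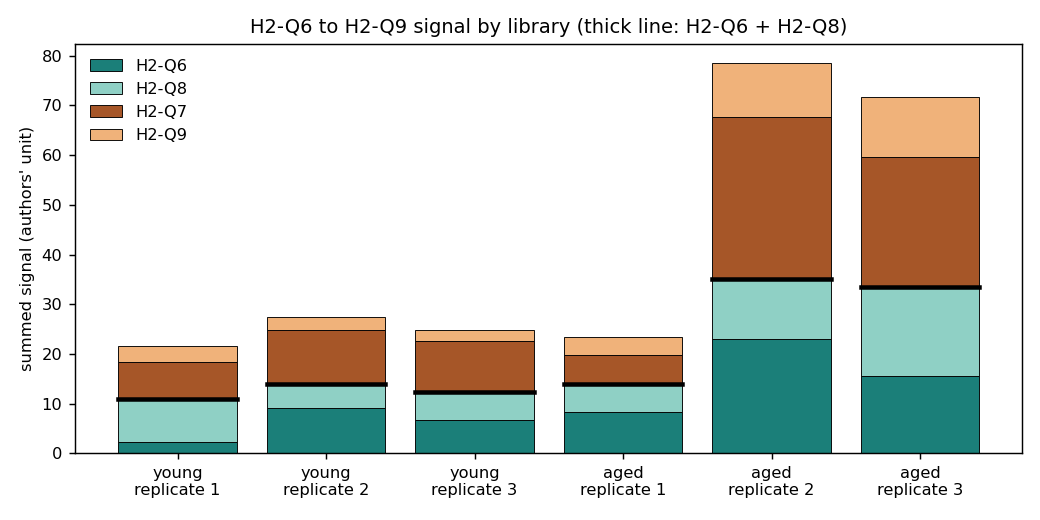
Stacked signal (authors' unit, from 0) of H2-Q6, H2-Q8, H2-Q7 and H2-Q9 in each library, the thick line marking H2-Q6 plus H2-Q8. The split between H2-Q6 and H2-Q8 differs among the young libraries, whose totals lie between 21.6 and 27.4, and aged replicates 2 and 3 reach 78.5 and 71.6.

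None of the 5 genes passed the test across all genes. Limma on log2(signal + 1) called 0 of 66 genes at a 5% false discovery rate (0.0%). In that fit 3 genes had an unadjusted p under 0.05 (4.55%), namely H2-Q9, H2-Q6 and, with the lowest p, the class I gene Gm8909. The log2 change, aged minus young, was 1.26 for H2-Q9 (SE 0.424, limma adjusted p = 0.656, higher in 3 of 3 aged samples), with a 95% interval of 0.27 to 2.26. H2-Q6 had 1.29 (SE 0.520), H2-Q7 0.82 (SE 0.585), H2-Q8 0.72 (SE 0.426) and H2-Q4 0.30 (SE 0.334), with limma adjusted p-values of 0.909 for H2-Q6 and 0.994 for the other 3. The interval of H2-Q4 ran from −0.49 to 1.09, and that of H2-Q7 from −0.55 to 2.20. The median over the 5 genes was 0.82, beside 0.12 over all 66.

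In the authors' deposited table the log2 ratios of aged to young were 1.74 for H2-Q9, 1.39 for H2-Q6, 1.21 for H2-Q7, 0.94 for H2-Q8 and 0.39 for H2-Q4. The q-values of the authors' deposited table ran from 3.28e-72 (H2-Q7) to 2.04e-20 (H2-Q8), and 54 of its 85 genes with a q-value (63.5%) were below 0.05. The sources used here do not name the test behind them, and limma on the same 6 libraries, which weighs the spread between samples, passed none of these genes.

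Aged replicate 1 decided the call. Without it, limma called all 5 genes higher in the aged samples, where 21.2% of the 66 genes were called higher. The log2 changes were then 1.74 for H2-Q9 (SE 0.198, limma adjusted p = 0.00126), 1.66 for H2-Q6 (SE 0.462, adjusted p = 0.0454), 1.54 for H2-Q7 (SE 0.198, adjusted p = 0.00199), 1.13 for H2-Q8 (SE 0.280, adjusted p = 0.0315) and 0.61 for H2-Q4 (SE 0.125, adjusted p = 0.0162), in 2 of 2 aged samples each. Their ranks by size of change were 2, 3, 4, 5 and 13 of 66. Adjusted p-values of H2-Q9 over its alternatives went from 0.000175 to 0.999. Limma's array weights on all 6 libraries also called 5 of 5 (22.7% of genes called higher). Because the table was picked for a higher aged mean, a gene that was low in aged replicate 1, such as H2-Q7 and H2-Q4, had to be high on average in the other 2.

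With the pairs of copies summed and aged replicate 1 left out, the log2 change was 1.40 for H2-Q6 plus H2-Q8 (SE 0.146, limma adjusted p = 0.000240) and 1.66 for H2-Q7 plus H2-Q9 (SE 0.151, adjusted p = 0.000130), where 18.8% of 64 genes were called higher. With the 4 copies as 1 sum it was 1.57 (SE 0.137, adjusted p = 0.000124), where 14.3% of 63 genes were called higher. The sum of H2-Q7 and H2-Q9 was also low in aged replicate 1, at 9.40 against 10.6, 13.5 and 12.6 in the young. It thus had to be high on average in the other aged samples too. Setting library medians equal left 2 of the 5 called, H2-Q9 and H2-Q7 (7.58% of genes higher), and removing each library's trend on GC content and transcript length left 1 of the 3 genes with a transcript, H2-Q7 (8.06%), both without aged replicate 1. The GC content of those transcripts was 55.8% for H2-Q4, 54.9% for H2-Q6 and 57.2% for H2-Q7.

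**Figure D3:**
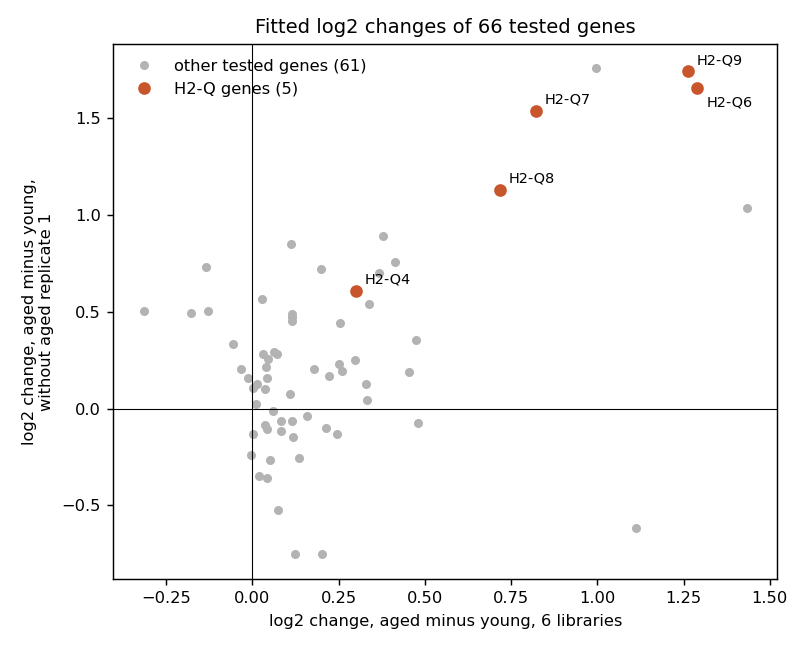
Fitted log2 change, aged minus young, of 66 tested genes with 6 libraries (horizontal) and without aged replicate 1 (vertical). The 4 Qa-2 genes lie between 0.72 and 1.29 on the first axis and between 1.13 and 1.74 on the second, and H2-Q4 lies at 0.30 and 0.61.

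H2-Q6 to H2-Q9, related copies of one another, were next set against the classical genes of the same library, since a ratio within a library cancels any factor common to its genes. H2-K1 was at 145, 172 and 162 in the young and 129, 268 and 252 in the aged samples, and H2-D1 at 199, 271 and 242 and at 113, 346 and 352. Relative to their sum, the H2-Q6 to H2-Q9 signal was 6.28%, 6.19% and 6.16% in the young and 9.64%, 12.8% and 11.9% in the aged samples. All aged libraries, replicate 1 included, were above all young ones.

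The mean ratio was 11.4% ± 1.61 in aged and 6.21% ± 0.0633 in young samples (SD, n = 3 each), 1.84 times as high, with an exact two-sided permutation p = 0.1, the smallest possible. The difference of 5.22 percentage points ran from 4.54 to 6.11 with 1 library left out. Of 59 other tested genes set against the same sum, 1 (1.69%), the class I gene Gm8909, had all aged above all young ratios. Its aged ratios were 9.89%, 1.57% and 1.70%, its young ones 1.00%, 1.20% and 1.09%. That background holds single genes, whereas the copies were summed. Among the copies as single genes, H2-Q6 and H2-Q9 separated the groups (exact two-sided permutation p = 0.1 each). H2-Q7 and H2-Q8 did not (exact two-sided permutation p = 0.3 each). The H2-Q7 ratio of aged replicate 1, 2.41%, fell inside the young range of 2.18% to 2.53%. For H2-Q8 only aged replicate 3, at 2.97%, exceeded the highest young ratio, 2.55%. The table's selection does not fix the direction of the summed copies' ratio, since H2-K1 and H2-D1 were picked in the same way. In aged replicate 1 the copies' sum lay within the young range and the classical sum, 243, lay below the young values of 343, 443 and 404.

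For H2-Q6 plus H2-Q8 the ratio was 3.19%, 3.13% and 3.06% in the young and 5.77%, 5.70% and 5.55% in the aged samples. That is 1.81-fold higher, with a CV of 2.21% in the young and 1.96% in the aged samples (exact two-sided permutation p = 0.1). The CV was 1.02% and 14.1% for the sum of the 4 copies, and 0.880% and 29.1% for H2-Q7 plus H2-Q9. H2-Q6 plus H2-Q8 was thus the tightest of these in the aged samples but not in the young. None of the 59 other genes had a ratio with a CV under 5% in both groups, and their median CV was 23.6% in the young and 64.5% in the aged samples. These were single genes, so they cannot show how often a sum of 2 genes is as tight. Taken singly, H2-Q6 and H2-Q8 had ratios with a young CV of 49.9% and 46.6%. H2-Q7 plus H2-Q9 stood at 3.09%, 3.05% and 3.11% in the young and at 3.87%, 7.08% and 6.32% in the aged samples. Aged replicate 1 was thus level with the other aged libraries for the first pair and nearer to the young ones for the second. These pair ratios were chosen after values were seen.

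H2-Q4 gave another picture against the same sum, at 16.9%, 15.5% and 14.7% in the young and 20.4%, 16.2% and 15.0% in the aged samples. The groups overlapped, the means were 17.2% ± 2.81 and 15.7% ± 1.11 (SD, n = 3 each, exact two-sided permutation p = 0.6), and the difference of 1.48 percentage points became −0.10 without aged replicate 1. The copies' sum set directly against H2-Q4 was 37.1%, 39.9% and 41.9% in the young and 47.3%, 78.8% and 79.1% in the aged samples, again without overlap (exact two-sided permutation p = 0.1).

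**Figure D4:**
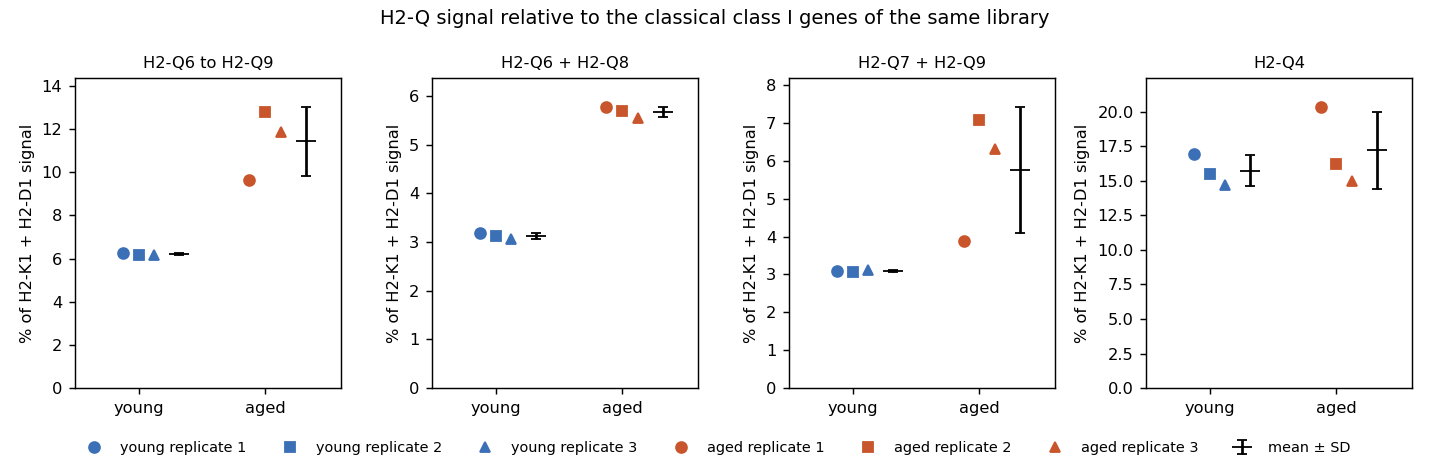
Signal of the H2-Q genes as a percentage of the summed H2-K1 and H2-D1 signal in the same library (axes from 0), with mean and SD of 3 young and 3 aged libraries. The groups separate for the sum of H2-Q6 to H2-Q9 (6.16% to 6.28% against 9.64% to 12.8%) and for both pair sums. They overlap for H2-Q4.

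The separation depended on what the copies were set against. Of the 8 other tested class I genes, 5 gave aged ratios that were all above the young ones (H2-K1, H2-D1, H2-T22, H2-T23 and H2-T10), and Gm8909, Gm11127 and H2-M3 did not. Over all 61 other tested genes, 20 (32.8%) gave such a separation. Against the summed signal of all listed genes but the 5, the copies stood at 0.960%, 1.46% and 1.37% in the young and at 1.28%, 2.79% and 2.58% in the aged samples, where aged replicate 1 overlapped the young range. A limma fit on log2 values scaled to the classical sum, added after the data were seen, called 0 of 62 genes higher (0.0%) with the pairs summed. The log2 change of H2-Q6 plus H2-Q8 in that fit was 0.81 (SE 0.208), with a limma adjusted p = 0.444 (unadjusted 0.00716) and higher values in 3 of 3 aged samples. With single genes and without aged replicate 1, the scaled fit called H2-Q9 (log2 change 1.12, SE 0.252) and H2-Q7 (0.91, SE 0.175) higher, where 4.69% of 64 genes were called higher, and gave −0.016 (SE 0.158) for H2-Q4.

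In aged replicates 2 and 3 the 8 other tested class I genes exceeded the young mean by smaller factors than the Qa-2 genes. H2-Q4, at 1.53 times the young mean there, was below Gm8909 (2.27) and H2-K1 (1.63). Of these 8 genes, 6 had both of those libraries above all young samples, against 43.9% of the 66 tested genes. In 5 of the 6, aged replicate 1 was at the same time below all young samples, against 31.8%. Without aged replicate 1, 4 of the 8 passed limma as higher, where 21.2% of the 66 genes did. They were Gm8909, H2-K1, H2-T23 and H2-D1, with log2 changes of 1.04 (SE 0.215), 0.70 (SE 0.130), 0.49 (SE 0.111) and 0.57 (SE 0.160). Each was below the change of every Qa-2 gene in that fit, a difference that was not tested. With all 6 libraries, Gm8909 had the largest log2 change of the 66 tested genes, 1.43 (SE 0.381, limma adjusted p = 0.444), above every H2-Q gene. Its signal was 3.45, 5.31 and 4.40 in the young and 24.0, 9.63 and 10.25 in the aged samples. The other 3 H2-Q genes of the table, H2-Q1, H2-Q2 and H2-Q10, had means of 0.677 or less and were not tested.

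Of 28 genes listed for class I peptide loading and its control, only the NF-kB subunit genes Rela and Nfkb1 are in the table. Rela was at 49.6, 68.8 and 72.0 in the young and at 34.7, 76.8 and 81.8 in the aged samples (log2 change −0.05, SE 0.389, limma adjusted p = 0.994). Nfkb1 was at 20.8, 20.2 and 20.2 in the young and at 19.1, 22.6 and 21.2 in the aged samples (log2 change 0.04, SE 0.204, limma adjusted p = 0.994). Neither passed with aged replicate 1 left out, with limma adjusted p-values of 0.208 for Rela and 0.623 for Nfkb1.

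The 5 genes with the pattern most like the copies' sum were found by Pearson's r of log2(signal + 1) over 6 libraries. Besides H2-K1 they were the cell cycle inhibitor genes Cdkn1a and Cdkn2b, the DREAM repressor complex subunit gene Lin37, and H2-T23, which encodes Qa-1. Their r was 0.968 for H2-K1, 0.956 for Cdkn1a, 0.836 for Cdkn2b, 0.829 for Lin37 and 0.823 for H2-T23. These values describe 6 libraries in which aged replicates 2 and 3 are high. Over the 4 libraries without those 2, r was 0.745 for H2-K1, 0.591 for Lin37, 0.413 for H2-T23, −0.0940 for Cdkn1a and −0.0071 for Cdkn2b. The likeness of Cdkn1a and Cdkn2b thus rested on aged replicates 2 and 3.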

How the data were processed

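For 6 libraries the deposited table gives 1 expression signal for each gene and, per the file headers, a log2 ratio of aged to young, a p-value and a q-value computed by the authors. The sources used here do not give the signal's unit or normalization, the aligner, counting tool, genome build or depth, so no counting interval is given. The cell cycle table (21 genes) holds none of the 5 genes. Genes averaging 1 or more over all samples (66 of 88) were fitted as log2(signal + 1) with limma 3.58.1 in R 4.3.3 (eBayes with trend, no covariate), with Benjamini-Hochberg adjustment over all of them at 5%. Changes on this scale understate those of low genes. The fit was run on simulated data with a smaller spread than the observed one and no outlying library. That run does not show how the fit performs with a library like aged replicate 1. Sums and ratios were compared by exact two-sided permutation tests. Python 3.11.15, numpy 2.4.6, pandas 2.3.3, Biopython 1.88 and matplotlib 3.10.9 were used.

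The genes, lists and tests were chosen with earlier results of these data known. Named were the 5 genes, other class I genes, listed pathway genes and the 5 most alike genes. Alternatives were equal medians, no filter, a minimum mean of 5, a pseudocount of 0.1, no trend, array weights, a replicate block, each library left out, a 10% false discovery rate, summed copies and other denominators. Scaling to the classical sum, the denominators H2-Q4 and further class I genes, the removal of GC and length trends (62 genes with a GENCODE M21 transcript) and the alternatives combined with leaving out aged replicate 1 were chosen after seeing the data.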

Additional observations from a re-analysis of the deposited data

How the results depend on the processing

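With equal library medians, a pseudocount of 0.1, either other filter, no trend, a 10% false discovery rate, pairs or all 4 copies summed, or GC and length trends removed, 0 H2-Q genes and 0 genes in all passed limma, as in the reported fit. Array weights gave 5 H2-Q genes and 15 genes in all. With 1 library left out the counts ran from 0 to 5 H2-Q genes and from 0 to 15 genes, both highest without aged replicate 1. With aged replicate 1 left out as well, 3 of 3 H2-Q features and 13 genes passed with pairs summed, 2 of 2 and 9 with the 4 copies summed, 2 and 9 with equal medians, 1 and 6 with GC and length trends removed, and 2 and 8 with scaling to H2-K1 plus H2-D1. Under that last setting the log2 change of H2-Q4 was −0.016, and the cause was not tested. The single genes otherwise kept a positive log2 change under every setting run. The ratio of the copies' sum turned to a difference of −32.3 percentage points with Gm8909 as denominator, where aged replicate 1 had a Gm8909 signal of 24.0. The difference of the copies' sum ran from 22.9 to 50.4 and that of their ratio to the classical sum from 4.54 to 6.11 with 1 library left out, and that of the H2-Q4 ratio from −0.10 (without aged replicate 1) to 2.58. The replicate block gave 0 H2-Q genes and 0 genes in all, with H2-Q6 at an adjusted p of 0.150. Same-numbered samples deviated together with r of 0.271, 0.0908 and 0.408, not over 0.1 in every pair. Aged replicates 1 and 3 correlated best with the young sample of the same number, and aged replicate 2 with young replicate 3 (0.254). The samples were taken to share a number only, but 3 samples in each group cannot settle whether they are paired. The number of samples limits every test here, and depth is unknown.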
